A study of Homo sapiens with 24 samples.

Results

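The genes followed here encode brakes on ERK signalling, and they were read in 24 RNA sequencing libraries made from BPH-1 and RWPE-1, immortalized epithelial cells of the human prostate: DUSP1, DUSP4, DUSP5, DUSP6, DUSP7, SPRY1, SPRY2, SPRY4, SPRED1 and SPRED2. They were picked by symbol for their known role in negative feedback, by a rule that uses no measured value, though with earlier results of these data known, and make up 10 of the 60448 gene rows in each of the 4 deposited tables. All 10 passed the filter on low counts in every comparison below. BPH-1 cells were immortalized with SV40 and were kept in medium with serum (DMEM in the labels, RPMI in the study's methods), whereas RWPE-1 cells were immortalized with HPV18 and were kept in serum-free keratinocyte medium with EGF and bovine pituitary extract. Each line was studied as vector control (3 libraries of BPH-1 and 1 of RWPE-1), as parental cells that overexpress wild-type C-Raf from a lentivirus with a ubiquitin promoter (3 and 4 libraries), and as C-Raf metastasis-derived cells (6 and 7 libraries). The metastasis-derived cells came from macroscopic tumors that formed in immune-deficient NSG mice after the C-Raf parental cells were injected into the heart, and they were cultured for about a week before sequencing. The lentiviral vector also carries firefly luciferase. Titles of the BPH-1 vector and parental libraries also carry sGluc, a secreted Gaussia luciferase used to follow tumor burden. The labels do not tie metastasis-derived lines to animals, nor do they say that replicates of vector or parental cells were separate cultures, so the p-values below measure the spread between these libraries, which may be technical. Both BPH-1 lines that carry the number R075 are labelled with opposite sites, bone and thymus, in title and treatment. They are called here by their titles, and no site was used for them.

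When a receptor tyrosine kinase or Ras switches on Raf, the kinases MEK and then ERK are phosphorylated, and active ERK turns on the transcription of its own inhibitors. The dual-specificity phosphatases (DUSPs, or MAP kinase phosphatases) remove both activating phosphates from MAP kinases: DUSP1, DUSP4 and DUSP5 act in the nucleus, and DUSP6 and DUSP7 act on ERK in the cytoplasm. Sprouty and Spred proteins act upstream, between the receptor, Ras and Raf. Since several of these transcripts are short-lived and follow ERK activity, DUSP6, SPRY2 and SPRY4 are widely used as readouts of the pathway.

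In GENCODE version 29 on hg38, DUSP1 lies on the minus strand at chr5:172768090-172771195, DUSP6 on the minus strand at chr12:89347232-89353271, SPRY4 on the minus strand at chr5:142310427-142326455 and SPRY1 on the plus strand at chr4:123396795-123403760. Promoter windows of 300 bases, which end in the first exon 50 bases past the start, are shown for these 4 genes because DUSP1 moved opposite to the other 3 when C-Raf was overexpressed in BPH-1, and because DUSP1 and SPRY1 were the genes called, with opposite signs, when metastasis-derived effects were compared between the cell lines. Sequences are RefSeq's for GRCh38.p14 and lie at chr5:172771146-172771445 (DUSP1, minus strand), chr12:89352452-89352751 (DUSP6, minus strand), chr5:142324198-142324497 (SPRY4, minus strand) and chr4:123398136-123398435 (the second of the listed SPRY1 starts, plus strand). Capitals mark matches to the motifs that were searched.
DUSP1: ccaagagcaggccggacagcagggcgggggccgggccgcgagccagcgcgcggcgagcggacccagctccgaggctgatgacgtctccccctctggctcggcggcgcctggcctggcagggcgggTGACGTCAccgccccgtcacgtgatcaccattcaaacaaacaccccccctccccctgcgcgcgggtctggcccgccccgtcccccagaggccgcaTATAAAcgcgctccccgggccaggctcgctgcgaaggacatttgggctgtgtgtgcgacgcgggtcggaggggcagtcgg
DUSP6: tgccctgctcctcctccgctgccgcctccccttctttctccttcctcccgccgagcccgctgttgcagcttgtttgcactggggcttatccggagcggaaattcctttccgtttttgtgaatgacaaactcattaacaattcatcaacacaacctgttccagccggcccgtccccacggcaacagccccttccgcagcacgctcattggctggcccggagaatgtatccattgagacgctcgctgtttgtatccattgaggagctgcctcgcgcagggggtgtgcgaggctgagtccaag
SPRY4: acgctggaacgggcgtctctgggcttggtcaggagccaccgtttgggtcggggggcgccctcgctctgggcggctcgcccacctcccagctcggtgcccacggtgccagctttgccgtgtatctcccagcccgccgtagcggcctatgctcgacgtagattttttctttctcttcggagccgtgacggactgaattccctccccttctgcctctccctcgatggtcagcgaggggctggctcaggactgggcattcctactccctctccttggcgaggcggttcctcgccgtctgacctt
SPRY1: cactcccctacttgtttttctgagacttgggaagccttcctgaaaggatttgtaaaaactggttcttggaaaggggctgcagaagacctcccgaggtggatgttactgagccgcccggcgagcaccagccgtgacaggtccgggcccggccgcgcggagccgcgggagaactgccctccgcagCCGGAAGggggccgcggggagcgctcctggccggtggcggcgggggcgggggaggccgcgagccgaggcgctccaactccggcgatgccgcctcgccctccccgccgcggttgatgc

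Both strands were searched for an AP-1 site (TGANTCA), a cyclic AMP response element (CRE, TGACGTCA), a CArG box, the site of serum response factor, and an ETS site (CCGGAAG). The core promoter letters TATAAA were searched as well. The letters of the AP-1 and CRE motifs are alike at their ends but differ by a base in length, so no match to one was a match to the other. In the DUSP1 window a CRE began at position -125 and TATAAA at position -30, counted from the start at position 1. The SPRY1 window held an ETS site at position -67, and neither the DUSP6 nor the SPRY4 window held any of these letters. The DUSP6 and SPRY4 windows lie wholly within the GENCODE gene spans given above. Sequence at the outer start of those spans was therefore not searched. Among 35116 promoters of this length, 1.85% held the CRE, 11.5% TATAAA, 10.3% the ETS site, 7.71% the AP-1 site and 1.29% the CArG box. The 8 members with a window used here had 12 windows in all, and 9 of the 12 held no match. The only other window with a match was an alternative SPRED2 start, which held AP-1 sites at positions -6 and 35 and TATAAA at position -31. The DUSP1 window counted 36 CpG dinucleotides and 73.3% G and C, against medians of 14 and 58.7% over all promoters. The SPRY1 window shown (32 CpG) and SPRY4 (26 CpG) were also above that CpG median, as was DUSP6 (19 CpG). The other SPRY1 window, at chr4:123396545-123396844, had 12 CpG and 47.7% G and C, both under the medians, and held no match.

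In 21 of the 24 libraries, protein-coding counts ran from 20575861 to 42031527, and the 10 genes together received 9025 to 73658 counts. The 3 BPH-1 metastasis-derived libraries titled BONE R071, R074 and R075 had 111181 to 464967 protein-coding counts, of 9035970 to 41136920 in all. Of all their counts, 93.3 to 97.5% fell on RN7SL1, the RNA of the signal recognition particle, and part of the rest fell outside coding genes. Their 52 to 318 counts of the 10 genes are given apart. RN7SL1 also took 13.1% of the counts in R069, 30.3% in R072 and 4.60% in the library titled THYMUS R075, against at most 0.00932% in the other 18 libraries. Coding counts were 28144673 of 40191637 in R069, 20575861 of 52851374 in R072 and 27719237 of 33070705 in THYMUS R075. RN7SL1 thus was not the only source of counts outside coding genes there. BPH-1 C-Raf parental libraries had 25537270 to 28493360 coding counts of 25997814 to 29150116. Epithelial markers (7 genes, summed level 2910 to 12936 CPM, counts scaled to the same total of coding counts in each library) were all present in every group. The 6 stromal fibroblast markers summed to 7.81 to 74.2 CPM, 6 haematopoietic markers to 6.81 to 159 CPM, of which no more than 2 genes reached 1 CPM in any group, and 3 endothelial markers to at most 42.1 CPM, with 2 of the 3 under 1 CPM throughout. The stromal and endothelial sums were highest in metastasis-derived BPH-1 lines (52.3 to 74.2 and 2.53 to 42.1 CPM), the stromal sum reached 59.8 CPM in RWPE-1 metastasis-derived lines, and their part in the results was not tested. Replicates differed by more than counting noise in every pair, with a chi-square per degree of freedom of 1.69 to 4.59 in BPH-1 vector and C-Raf parental cells and 17.7 to 1136 in the other groups. In bulk samples of this kind, fewer cells of a type and less RNA per cell cannot be told apart.

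A level below is a gene's CPM after scaling between libraries, and changes are log2 fold changes from edgeR with their standard errors (SE). A gene was called at an adjusted p under 0.05 over all genes tested. On a scale that allows genes to be compared (CPM per kb of exon), DUSP6 was the most abundant of the 10 in each of the 6 groups, with a mean of 43.7 in BPH-1 vector cells, 142 in BPH-1 C-Raf parental cells and 69.1 in RWPE-1 C-Raf parental cells. SPRY1 was the least abundant in each group. In BPH-1 vector cells the order by mean level per kb ran from DUSP6 (43.7) through DUSP1 (37.6), DUSP5 (33.6), DUSP7 (10.9), DUSP4 (10.7), SPRED2 (7.57), SPRED1 (4.04), SPRY2 (1.90) and SPRY4 (1.42) to SPRY1 (1.31). In C-Raf parental BPH-1 cells DUSP4 had moved up to 33.8 and DUSP1 down to 18.0, and the 4 lowest genes, SPRY4 (5.34), SPRY2 (5.21), SPRED1 (4.91) and SPRY1 (4.70), stood close together. In C-Raf parental RWPE-1 cells the order was DUSP6 (69.1), DUSP5 (44.7), DUSP7 (20.5), DUSP1 (16.1), SPRED2 (14.5), SPRY4 (10.2), SPRED1 (9.94), SPRY2 (5.74), DUSP4 (5.47) and SPRY1 (0.956). No test was made between neighbours in these orders. DUSP7 and DUSP4, and SPRY4 and SPRY1, in BPH-1 vector cells, each neighbouring pair of the 4 lowest genes in BPH-1 C-Raf cells, and in RWPE-1 C-Raf cells the run from DUSP7 to SPRED2 and the pairs SPRY4 with SPRED1 and SPRY2 with DUSP4 differed by less than the sum of their SDs.

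**Figure D1:**
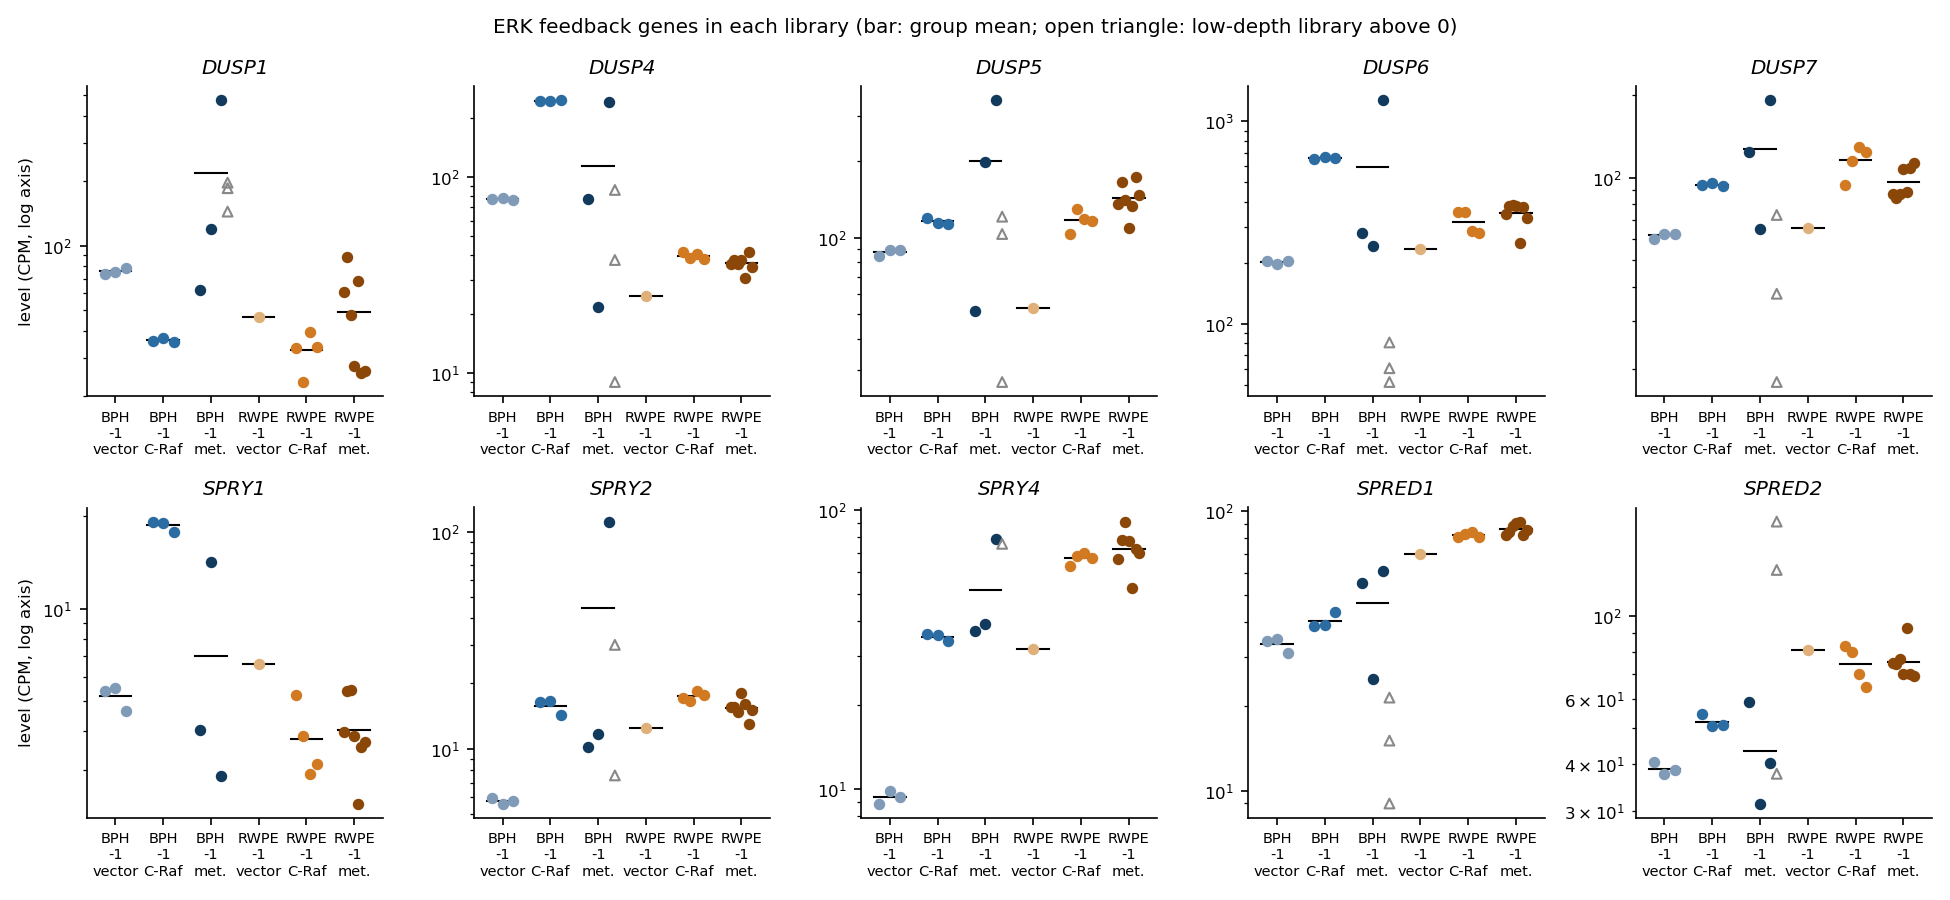
Level of each of the 10 feedback genes in every library (CPM, log axis, range differs between panels) by cell line and stage; filled points are the 21 deeper libraries, short bars are group means of those, and open triangles are low-depth libraries above 0. BPH-1 C-Raf parental libraries lie above the vector libraries for 9 genes and below them for DUSP1, and BPH-1 metastasis-derived libraries spread most widely.

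The first comparison set C-Raf parental cells against vector control cells. For BPH-1 the study lists a single vector line and a single line with C-Raf under the ubiquitin promoter. C-Raf and any other difference between these lines therefore cannot be told apart. In BPH-1, all 10 genes changed: DUSP4, DUSP5, DUSP6, DUSP7, SPRY1, SPRY2, SPRY4, SPRED1 and SPRED2 rose, and DUSP1 fell. The largest rises were in SPRY4 (3.76-fold), SPRY1 (3.59-fold), DUSP6 (3.26-fold), DUSP4 (3.17-fold) and SPRY2 (2.74-fold). Of 13244 genes tested, 30.4% were called higher and 29.4% lower, so that a call by itself was common in this comparison. For all 10 genes the 3 C-Raf libraries lay outside the range of the 3 vector libraries, 9 above it and 1 below it, where 34% of all genes with a level were above and 30.8% below. The median log2 change of the 10 genes was 1.03, against -0.002 over all genes.

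Among the nuclear phosphatases, DUSP1, an immediate early gene whose product acts on p38 and JNK as well as ERK, was at 73.97, 75.6 and 78.3 CPM in the vector libraries and at 36.1, 37.3 and 35.8 CPM in the C-Raf libraries. The groups did not overlap, and DUSP1 fell by 1.06 on the log2 scale (SE 0.04, adjusted p = 9.39e-20). DUSP4, which acts on ERK and JNK, went from 77.1, 78.6 and 76.2 CPM to 244, 244 and 247 CPM, a log2 fold change of 1.67 (SE 0.03, adjusted p = 5.46e-27), and was 15th of all genes by p. DUSP5, an ERK-specific phosphatase that also holds ERK in the nucleus, rose less, from 84.2, 89.7 and 89.4 CPM to 119.6, 115 and 113 CPM (log2 fold change 0.40, SE 0.03).

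DUSP6, the main ERK phosphatase of the cytoplasm, was at 204, 198 and 205 CPM in vector cells and at 651, 667 and 659 CPM with C-Raf. That is a log2 fold change of 1.70 (SE 0.03, adjusted p = 7.03e-28), the 10th of all genes by p. DUSP7, its close relative, rose from 59.9, 62.4 and 62.3 CPM to 93.9, 95.7 and 92.9 CPM (0.61, SE 0.03). The level of DUSP6 changed the make-up of the group, since it held 33.1 to 34.3% of the summed CPM of the 10 genes in the vector libraries and 49.7 to 50.5% in the C-Raf libraries.

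The 3 Sprouty genes, whose products block growth factor signalling at or above Raf, were all low in vector cells and all rose. SPRY1 was at 5.39, 5.54 and 4.64 CPM in vector cells and at 19.2, 19.0 and 17.8 CPM with C-Raf (log2 fold change 1.85, SE 0.08). SPRY2 was at 5.94, 5.61 and 5.77 CPM and then at 16.4, 16.7 and 14.4 CPM (1.46, SE 0.08). SPRY4 was at 8.86, 9.83 and 9.37 CPM and then at 35.8, 35.5 and 33.8 CPM (1.91, SE 0.06, adjusted p = 1.17e-21). The Spred genes, whose products bring the Ras inhibitor neurofibromin to the membrane, rose less than the Sprouty genes. SPRED1 moved from 34.3, 34.9 and 31.0 CPM to 38.8, 39.2 and 43.7 CPM (0.28, SE 0.05, adjusted p = 1.94e-05), and SPRED2 from 40.5, 37.8 and 38.7 CPM to 54.6, 50.7 and 51.1 CPM (0.42, SE 0.04).

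**Figure D2:**
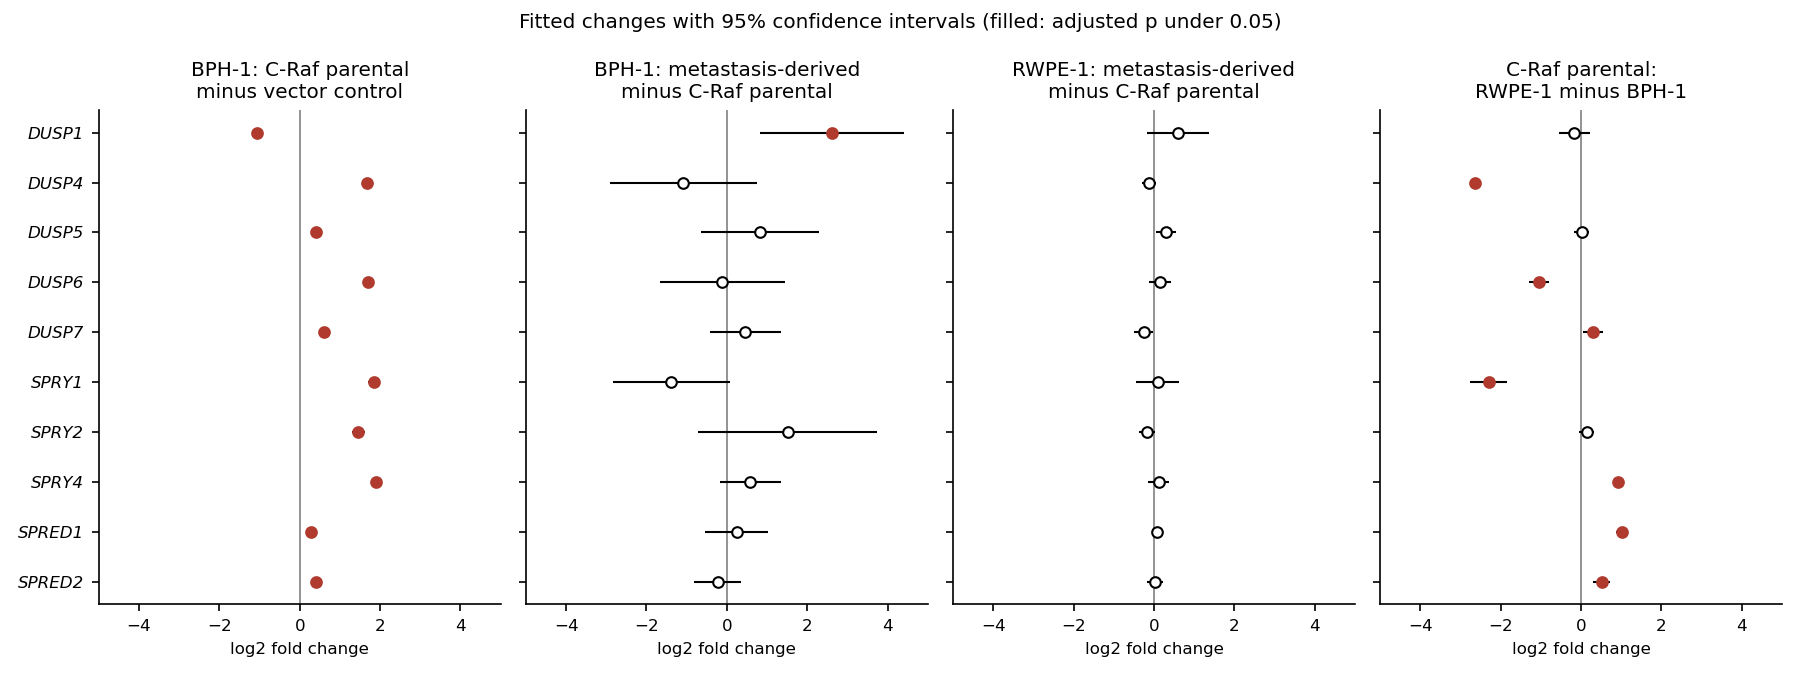
Fitted log2 fold changes of the 10 feedback genes with 95% confidence intervals in 4 comparisons; filled points have an adjusted p under 0.05. In BPH-1, C-Raf parental minus vector cells gave intervals away from 0 for all 10 genes. Only DUSP1 was called between metastasis-derived and C-Raf parental BPH-1 cells, and none of the 10 between those RWPE-1 stages.

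Related genes outside the 10 did not all follow them. Of 7 other MAP kinase phosphatases, 2 rose and 5 fell with C-Raf in BPH-1 (median -0.35), among them DUSP8, a phosphatase of JNK and p38 that fell by 1.81 (SE 0.12), DUSP16, a JNK phosphatase that fell by 0.63 (SE 0.07), and DUSP10, which acts on JNK and p38 and rose by 0.56 (SE 0.04). SPRED3 rose by 0.67 (SE 0.15), whereas SPRY3 had a log2 fold change of 0.00 (SE 0.26). Of 14 other brakes on receptors and Ras, 5 rose, 4 fell and 5 were not called (median 0.07); LRIG1, an inhibitor of ERBB receptors, rose by 2.28 (SE 0.06), and the Ras GTPase activators RASA1 and RASA2 rose by 0.91 (SE 0.04) and 0.58 (SE 0.04). Of 10 genes of the ERK cascade itself, 1 rose and 5 fell, the largest being the scaffold KSR1, which fell by 0.58 (SE 0.07).

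Of 10 ERK output genes (targets of the pathway, such as growth factors and ETS factors), 8 rose and 2 fell, with a median of 0.85. HBEGF, an EGF receptor ligand, rose by 1.57 (SE 0.03), while EPHA4 fell by 2.07 (SE 0.26) and EGR1 fell by 1.17 (SE 0.03). All 10 immediate early genes, which respond within minutes to growth factors and stress, fell, with a median of -1.23, as did DUSP1. EGR2 fell by 2.81 (SE 0.18), NR4A1 by 1.89 (SE 0.06) and ATF3 by 1.81 (SE 0.06). The summed level of the 10 immediate early genes went from 1149 to 1199 CPM across the vector libraries to 609 to 638 CPM across the C-Raf libraries. The fit of these 6 libraries had a biological coefficient of variation of 2.43%, against 35.3% in the BPH-1 metastasis comparison.

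In RWPE-1 there was 1 vector library, and C-Raf could be compared with it only by value. DUSP6 was at 233 CPM in the vector library and at 358, 356, 286 and 279.7 CPM in the 4 C-Raf libraries, 1.37-fold in the mean. DUSP5 was at 52.7 CPM and then at 103, 130.0, 118 and 117 CPM (2.22-fold), and SPRY4 was at 31.7 CPM and then at 62.7, 68.4, 70.0 and 66.9 CPM (2.12-fold). These 2 genes were the only ones at least 2-fold higher with all 4 C-Raf libraries on that side, where 6.01% of 11909 genes were higher and 2.12% lower by this measure. Against the 1 C-Raf library of the same table as the vector library, the ratios were 1.96 for DUSP5 and 1.98 for SPRY4, under 2-fold. DUSP7 (1.77-fold), DUSP4 (1.61-fold), SPRY2 (1.40-fold) and SPRED1 (1.17-fold) were also above the vector library in all 4 C-Raf libraries, and SPRED2 (0.918-fold) overlapped it. The share of all genes with all 4 C-Raf libraries on 1 side of the vector library, whatever the fold, was not computed. Lying on 1 side thus cannot be called particular to these genes. DUSP1 was at 46.3 CPM in the vector library and at 33.4, 23.2, 39.7 and 33.8 CPM with C-Raf (0.702-fold). SPRY1, which rose in BPH-1, was at 6.60 CPM in the RWPE-1 vector library and at 5.26, 3.87, 2.90 and 3.12 CPM with C-Raf (0.574-fold, and 0.797-fold in the vector library's table). Whether the response differs between the cell lines was not tested, for want of vector replicates in RWPE-1.

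A fit of 21 libraries with a term for the cell line gave the average C-Raf effect of both lines. SPRY4 alone was called, with a log2 fold change of 1.65 (SE 0.23, 95% interval 1.17 to 2.13, adjusted p = 0.0017), where 0.42% of 15252 genes were called higher and 0.393% lower. SPRY4 was called in each of the 21 fits that left out 1 library, but not when the 3 low-depth libraries were kept in (adjusted p = 0.0617). DUSP6 (1.22, SE 0.34, adjusted p = 0.115), DUSP4 (1.24, SE 0.38, adjusted p = 0.176) and DUSP7 (0.78, SE 0.22, adjusted p = 0.116) did not pass here but did with DESeq2, which called 4 of the 9 genes to which it gave an adjusted p. Of the related lists, LRIG1 (1.34, SE 0.30), RASA1 (0.67, SE 0.12) and IER3, an ERK output gene that dampens cell death (0.92, SE 0.18), were called, and no immediate early gene was. DUSP1 had a log2 fold change of -0.51 (SE 0.50) and SPRY1 of 0.77 (SE 0.44).

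The metastasis comparison in BPH-1 set 3 lines, R069, R072 and THYMUS R075, against the 3 C-Raf parental libraries. Stage and table cannot be told apart here, since all metastasis-derived BPH-1 libraries are in a table of their own, and the parental libraries are those of the first comparison. DUSP1 rose, and the other 9 genes were not called, where 21% of 13465 genes were called higher and 16.8% lower. The lines did not move together: DUSP4 and DUSP6 were at least 2-fold below the parental mean in R069 and R072, whereas in THYMUS R075 DUSP6 was above it and DUSP4 close to it. The median log2 change of the 10 genes was 0.35, against 0.07 over all genes.

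DUSP1 was at 62.0 CPM in R069, 119 CPM in R072 and 475 CPM in THYMUS R075, all above the parental libraries at 35.8 to 37.3 CPM. Its log2 fold change was 2.62 (SE 0.74, 95% interval 0.83 to 4.40, adjusted p = 0.034). The call was lost when any of the 3 parental libraries was left out (adjusted p = 0.107 to 0.110, with log2 fold changes of 2.58 to 2.61), and without THYMUS R075 the change was 1.35 (adjusted p = 0.0164). Against vector cells, at 73.97 to 78.3 CPM, R069 was lower and the other two lines were higher. SPRY4 was at 36.9, 39.1 and 78.5 CPM, above the parental 33.8 to 35.8 CPM in each line (0.59, SE 0.31, adjusted p = 0.179).

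DUSP4 was at 77.4, 21.6 and 242 CPM in R069, R072 and THYMUS R075, just below the parental libraries (244 to 247 CPM) in the last. SPRY1 was at 4.05, 14.2 and 2.88 CPM, below the parental 17.8 to 19.2 CPM in each line (log2 fold change -1.38, SE 0.61, adjusted p = 0.118). DUSP1 and SPRY4 were the 2 genes above all parental libraries in every line, and DUSP4 and SPRY1 the 2 below, where 28.1% of 12688 genes were above and 32.1% below. The SPRY1 level in R069 and THYMUS R075 was under that of vector cells (4.64 to 5.54 CPM).

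DUSP6 was at 279.8, 242 and 1274 CPM in the same order, against 651 to 667 CPM in parental cells, so that 2 lines were below and 1 above (log2 fold change -0.11, SE 0.64, 95% interval -1.66 to 1.44). Without THYMUS R075, DUSP6 fell by 1.30 (adjusted p = 0.00325) and DUSP4 by 2.27 (adjusted p = 0.0244) and both were called. Without R072, SPRY1 fell by 2.41 (adjusted p = 0.000643), and DUSP7 (0.76, adjusted p = 0.0188) and SPRED1 (0.53, adjusted p = 0.00611) rose. In that fit 8325 genes in all were called, 4288 higher and 4037 lower, against 5082 in the main fit. Over all fits that left out 1 library, 1960 to 8325 genes were called, so that a call was common in them. DUSP5 was at 51.4, 199 and 348 CPM and was called only without R069 (1.28, adjusted p = 0.0274). SPRY2 was at 10.2, 11.7 and 111 CPM, and its log2 fold change went from 1.52 (SE 0.92) to -0.49 without THYMUS R075.

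Counted line by line against the parental mean, R069 had 0 of the 10 genes at least 2-fold above and 4 at least 2-fold below (DUSP4, DUSP5, DUSP6 and SPRY1). R072 had 1 above (DUSP1) and 2 below (DUSP4 and DUSP6), and THYMUS R075 had 5 above (DUSP1, DUSP5, DUSP7, SPRY2 and SPRY4) and 1 below (SPRY1). The share of all genes at least 2-fold away in each line was not computed, so these counts cannot be called particular to the 10 genes. The summed level of the 10 genes was 760 CPM in R069, 768 CPM in R072 and 2825 CPM in THYMUS R075, against 1309 to 1320 CPM in parental and 594 to 601 CPM in vector cells. The remaining members were SPRED1, at 55.1, 25.02 and 60.8 CPM, SPRED2, at 58.9, 31.4 and 40.3 CPM, and DUSP7, at 124, 65.0 and 192 CPM.

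**Figure D3:**
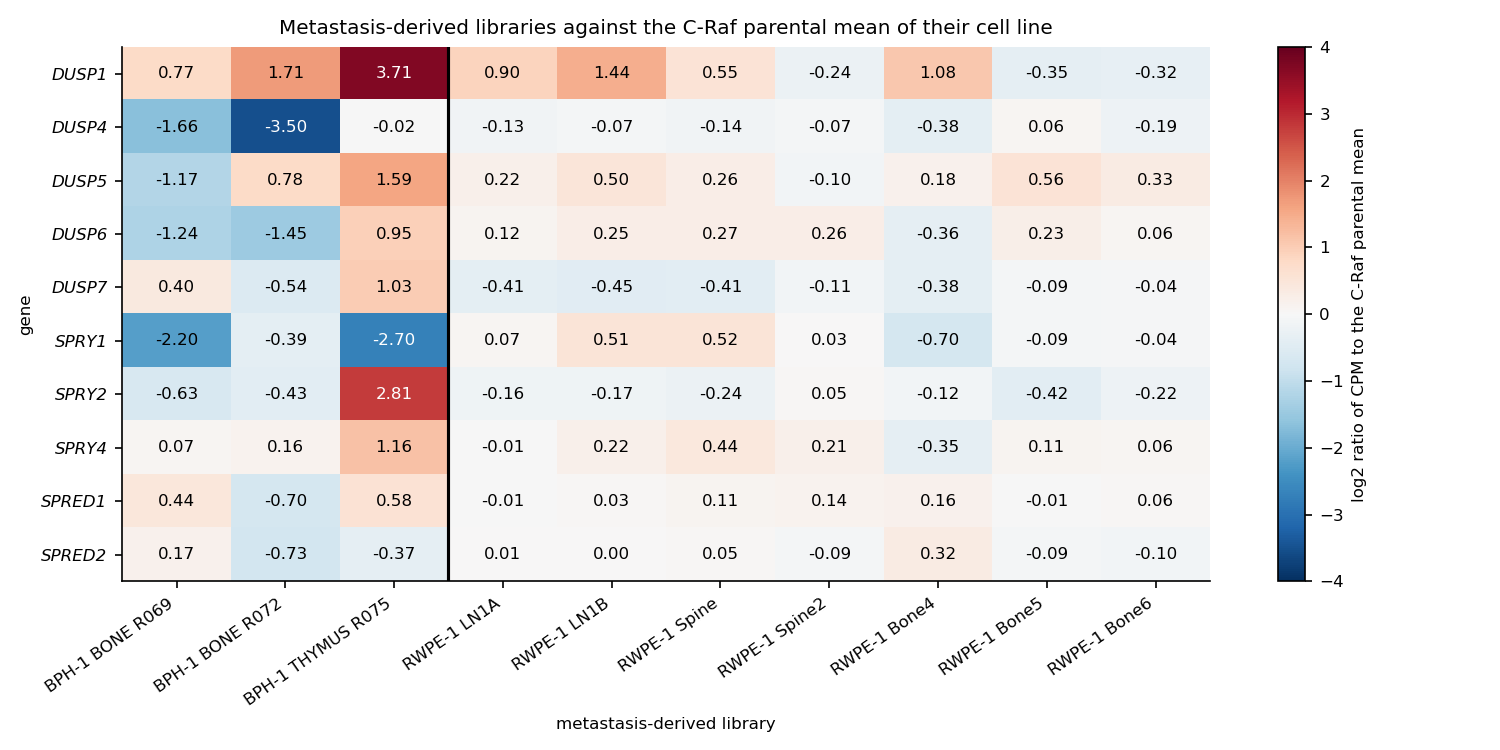
Log2 ratio of each metastasis-derived library (columns) to the mean of the C-Raf parental libraries of its cell line for each gene (rows); numbers give the ratio, red is above and blue below the parental mean. The BPH-1 lines range from -3.50 (DUSP4 in R072) to 3.71 (DUSP1 in THYMUS R075), and the RWPE-1 lines from -0.70 to 1.44.

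Across these 3 lines the summed level of the immediate early genes had the order of DUSP1. The immediate early sum was 809 CPM in R069, 2548 CPM in R072 and 3771 CPM in THYMUS R075, against 609 to 638 CPM in parental cells. DUSP5, SPRY2, SPRY4 and the summed ERK output genes also rose in that order of lines, so the order is not particular to DUSP1 and the immediate early genes. DUSP1 and the immediate early sum did not share an order among RWPE-1 lines, where LN1B had more DUSP1 than Bone4 (88.2 against 68.6 CPM) but a lower sum (513 against 622 CPM). Of the 10 immediate early genes, 3 rose and 0 fell in BPH-1 (median 2.14): the ERK target EGR3 rose by 3.77 (SE 1.11), the mRNA decay factor ZFP36 by 2.07 (SE 0.38) and JUNB by 1.68 (SE 0.41). Of 10 ERK output genes, 1 was higher, 3 were lower and 6 were not called (median -0.48), and their summed level was 1634, 2154 and 3654 CPM in R069, R072 and THYMUS R075, against 3221 to 3283 CPM in parental cells. No test of a difference between these lists was made. Among the called genes, CCND1 fell by 1.54 (SE 0.23), ETV5 fell by 1.32 (SE 0.24) and EPHA4 rose by 5.23 (SE 0.63). Of the other phosphatases DUSP16 rose by 1.75 (SE 0.25) and DUSP2, a nuclear phosphatase of ERK and p38, fell by 1.19 (SE 0.29), and the other 5 were not called. Neither SPRY3 nor SPRED3 was called. Other brakes had 4 higher and 2 lower of 14, led by the ubiquitin ligase CBLB (2.20, SE 0.19), IL17RD (fell by 1.18, SE 0.27) and PEBP1, a Raf inhibitor (fell by 1.14, SE 0.32). Among cascade genes BRAF rose by 1.12 (SE 0.15) and MAP2K2 fell by 1.15 (SE 0.17), and 8 were not called. The share of counts on RN7SL1 differed between these lines and the parental libraries, as given above, and its part in these changes was not tested.

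**Figure D4:**
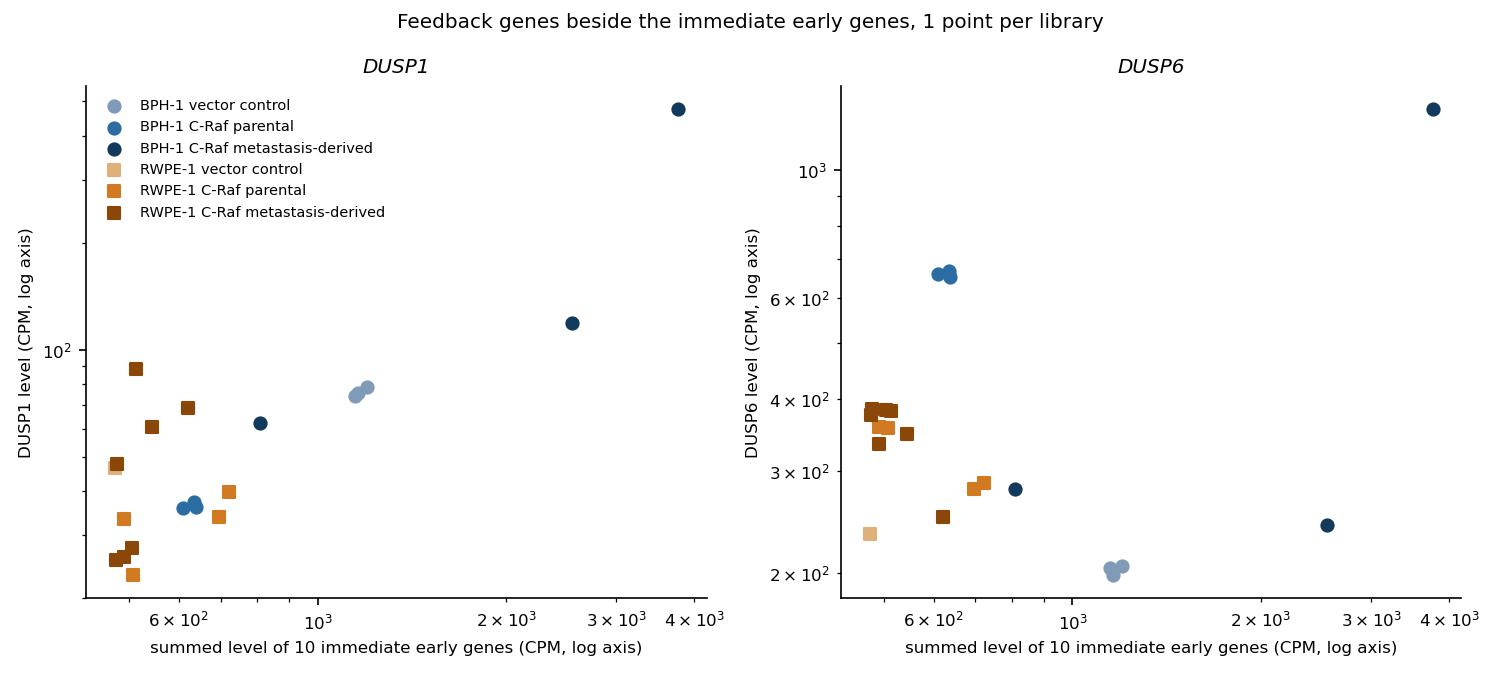
DUSP1 (left) and DUSP6 (right) levels against the summed level of 10 immediate early genes, both in CPM on log axes, with 1 point for each of the 21 deeper libraries. The BPH-1 line THYMUS R075 is highest on each axis, and BPH-1 vector libraries lie above the C-Raf parental libraries on the DUSP1 axis and below them on the DUSP6 axis.

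The 3 low-depth BPH-1 libraries gave few counts, and their levels are CPM without scaling between libraries, with exact 95% Poisson intervals that cover counting error only. DUSP1 had 86, 26 and 16 counts in R071, R074 and BONE R075, or 185 CPM (148 to 228), 196 CPM (128 to 288) and 144 CPM (82.3 to 234). DUSP6 had 24, 8 and 9 counts, or 51.6 CPM (33.1 to 76.8), 60.4 CPM (26.1 to 119) and 80.9 CPM (37.0 to 154), under its level in all 21 deeper libraries. DUSP1 was thus above and DUSP6 below BPH-1 vector and C-Raf parental cells in all 3. SPRY1 had 0 counts in all 3. A limit of 3 counts was used for a count of 0. That allows up to 6.45, 22.6 and 27.0 CPM, and only the first limit is under the parental level. The exact 95% intervals of these counts of 0 reach further, to 7.93, 27.8 and 33.2 CPM. SPRY4 had 0 counts in R071 and in BONE R075 and 10 in R074 (75.5 CPM, 36.2 to 139). The total of the 10 genes was 684 CPM in R071, 589 CPM in R074 and 468 CPM in BONE R075.

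In RWPE-1, 7 metastasis-derived lines were set against 4 C-Raf parental libraries. By edgeR, 0 of the 10 genes were called, where 0.0985% of 13201 genes were called in either direction. The lack of a call was thus common to nearly all genes and is not particular to the 10. DESeq2 also called 0 of the 10. At an unadjusted p under 0.05 there were 2, DUSP5 (log2 fold change 0.30, SE 0.11, adjusted p = 0.516) and DUSP7 (-0.25, SE 0.11, adjusted p = 0.591). All 10 genes overlapped between the groups, where 1.73% of 11980 genes did not, so that overlap was common too. Intervals were narrow for most genes, such as -0.03 to 0.18 for SPRED1, -0.13 to 0.42 for DUSP6, -0.14 to 0.38 for SPRY4, -0.36 to 0.02 for SPRY2, -0.18 to 0.23 for SPRED2 and -0.29 to 0.05 for DUSP4. They were wider for DUSP1 (-0.16 to 1.37) and SPRY1 (-0.44 to 0.63).

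DUSP6 ran from 249.8 through a median of 376 to 385 CPM in the 7 lines, against 279.7 to 358 CPM in parental cells. DUSP1 was at 60.6 and 88.2 CPM in the lymph node lines LN1A and LN1B, 47.8 and 27.6 CPM in Spine and Spine2, and 68.6, 25.6 and 26.1 CPM in Bone4, Bone5 and Bone6. Of these 7, 4 were above the highest parental library (39.7 CPM), and the fitted change was 0.60 (SE 0.35). LN1A, LN1B and Spine are in a table with 1 parental library, and Bone4 is in the other table. In the table with 3 parental libraries the change of DUSP1 was 0.19 (adjusted p = 0.908).

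Bone4 had the lowest DUSP6 (249.8 CPM), DUSP4 (30.4 CPM), SPRY1 (2.33 CPM) and SPRY4 (52.6 CPM) of the 7 lines, together with the highest SPRED1 (91.6 CPM) and SPRED2 (93.0 CPM). The other 6 lines had DUSP6 of 334 to 385 CPM and SPRY4 of 66.7 to 90.7 CPM. DUSP5 was at 136, 165, 141, 109, 133, 172 and 147 CPM in LN1A, LN1B, Spine, Spine2, Bone4, Bone5 and Bone6, against 103 to 130.0 CPM in parental cells, so that all lines but Spine2 were above the highest parental library. DUSP7 was at 87.5, 84.6, 87.0, 108, 88.7, 109 and 113 CPM in the same order, against 94.1 to 129.6 CPM, with 4 lines below the lowest parental library. SPRY2 ran from 13.01 to 18.1 CPM in the lines and from 16.5 to 18.4 CPM in parental cells, with 6 lines below the lowest parental library. DUSP4 also had 6 lines below the parental libraries, which ran from 38.0 to 41.6 CPM. SPRED1 differed least among lines, from 81.7 to 91.6 CPM, against 80.6 to 84.0 CPM in parental cells. Compared with the parental mean, 5 of the 7 lines had no feedback gene at least 2-fold away, and LN1B and Bone4 had 1 each, DUSP1. The share of all genes at least 2-fold away in each of these lines was not computed. These counts thus cannot be called particular to the feedback genes. By site, DUSP4 was at 36.2 to 37.8 CPM in 2 lymph node lines, 36.1 to 37.8 CPM in 2 spine lines and 30.4 to 41.5 CPM in 3 bone lines, and no test between sites was made with so few lines. No gene of the 6 related lists was called either (immediate early genes, median -0.07; ERK output genes, median 0.05; other brakes, 13 of 14 tested).

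**Figure D5:**
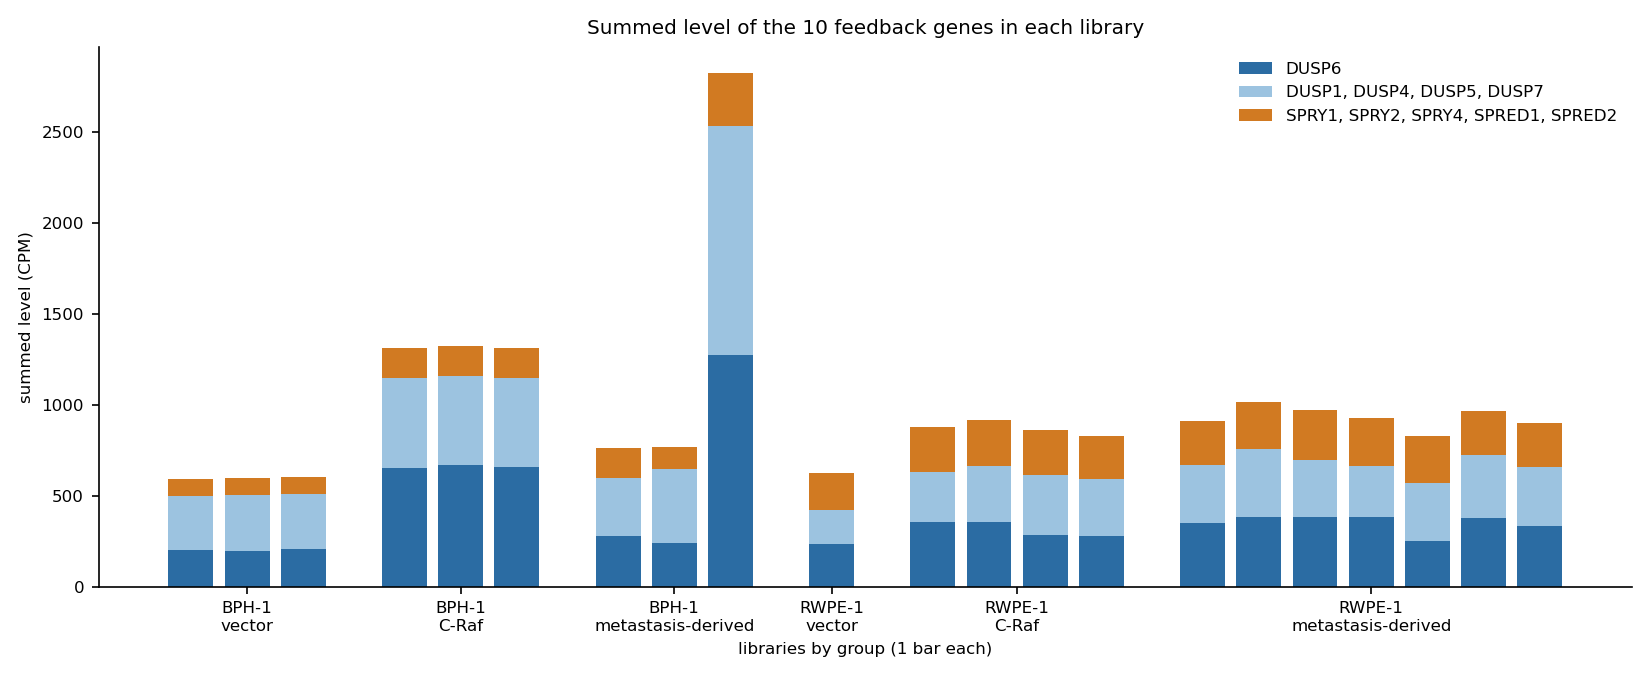
Summed level (CPM) of the 10 feedback genes in each of the 21 deeper libraries, 1 bar each, split into DUSP6, the other 4 phosphatases, and the Sprouty and Spred genes. BPH-1 C-Raf libraries sum to 1309 to 1320 CPM against 594 to 601 CPM in vector cells, RWPE-1 C-Raf libraries to 825 to 915 CPM against 624 CPM, and 1 BPH-1 metastasis-derived line to 2825 CPM.

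An interaction term tested whether the metastasis-derived effect differed between the cell lines, as RWPE-1 minus BPH-1. Since stage and table cannot be told apart in BPH-1, a difference between tables or in RN7SL1 share would enter this term too. A difference between the cell lines themselves therefore cannot be read from it. DUSP1 (-1.98, SE 0.74, adjusted p = 0.0379) and SPRY1 (1.54, SE 0.57, adjusted p = 0.0368) were called, 1 lower and 1 higher, where 23.5% of 14282 genes were lower and 21% higher. Each call was lost in 10 of the 17 fits that left out 1 library, DUSP1 mostly by small margins (adjusted p = 0.0506 to 0.0774) but without THYMUS R075 with a change of -0.69 (adjusted p = 0.324). For SPRY1 the adjusted p ran up to 0.101, without R069. Without THYMUS R075 the difference was called for DUSP4 (2.19, adjusted p = 0.000301) and DUSP6 (1.49, adjusted p = 5.72e-05), which in all 17 libraries had 0.99 (SE 0.61) and 0.28 (SE 0.54). Over the 17 fits that left out 1 library, 5510 to 7519 genes in all were called. SPRY2 had -1.66 (SE 0.73, adjusted p = 0.0752). All 10 immediate early genes were called lower in this term (median -2.12), with ATF3 (-3.57, SE 1.20), EGR3 (-3.33, SE 0.90) and EGR2 (-3.14, SE 1.05) the largest. Of the ERK output genes 3 were higher and 1 lower in this term (median 0.58).

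Averaged over both lines with a term for the cell line, the metastasis-derived effect called 0 of the 10 genes by edgeR, where 2.53% of 15252 genes were called in either direction. At an unadjusted p under 0.05 there was 1, DUSP1, with a log2 fold change of 1.30 (SE 0.40, adjusted p = 0.0851). DESeq2 called DUSP1 (1.32, adjusted p = 0.0204). DUSP6 had a change of -0.01 (SE 0.26) and SPRY4 of 0.26 (SE 0.17).

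The C-Raf parental cells of the 2 lines were also compared with each other. Cell line, medium and table cannot be told apart in this comparison. RWPE-1 cells had less DUSP4 (log2 fold change -2.63, SE 0.06), SPRY1 (-2.30, SE 0.20) and DUSP6 (-1.05, SE 0.11) and more SPRED1 (1.01, SE 0.06), SPRY4 (0.93, SE 0.06), SPRED2 (0.51, SE 0.09) and DUSP7 (0.29, SE 0.11, adjusted p = 0.0397), so that 3 genes were lower and 4 higher, where 36.3% of 13544 genes were lower and 37.5% higher. The DUSP7 call was lost in 6 of the 7 fits that left out 1 library. DUSP1 (-0.17, SE 0.16), DUSP5 (0.01, 95% interval -0.18 to 0.20) and SPRY2 (0.14, 95% interval -0.06 to 0.33) were not called. DUSP4 was at 38.0 to 41.6 CPM in RWPE-1 and at 244 to 247 CPM in BPH-1, with no overlap. SPRED1 was at 80.6 to 84.0 CPM in RWPE-1 and at 38.8 to 43.7 CPM in BPH-1, also with no overlap. The share of all genes without overlap was not computed for this comparison. In vector cells the same genes stood at 24.6 CPM (DUSP4) and 70.0 CPM (SPRED1) in the RWPE-1 library and at 76.2 to 78.6 and 31.0 to 34.9 CPM in BPH-1. Of 10 ERK output genes, 7 were also lower in RWPE-1 C-Raf parental cells (median -1.06), led by HBEGF (-2.27, SE 0.36), CCND1 (-1.79, SE 0.07) and IER3 (-1.26, SE 0.20).

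The genes whose pattern was most like that of each feedback gene were looked up among 9948 genes by the lower of 2 Pearson correlations of log2 CPM, 1 over 12 RWPE-1 and 1 over 9 BPH-1 libraries. These are descriptions across libraries that share groups, tables and depth. Closest to DUSP6 were MTAP (0.909), TFPI2 (0.888) and SLC20A1 (0.856). Closest to DUSP4 was SH3BGRL3 (0.919), to DUSP7 LRRC8C (0.917), to SPRY4 MAP4K4 (0.906), to SPRY2 IDS (0.891) and to SPRED1 PCNXL4 (0.862). Likeness was lower for SPRY1 (MFN2, 0.839), SPRED2 (MAL2, 0.834), DUSP5 (CHSY1, 0.796) and DUSP1 (EPM2AIP1, 0.782). None of the other 9 feedback genes was among the 3 most like genes of any of the 10, a strict cut among 9948 genes. Pairs within the 10 varied. DUSP6 with SPRY4 had correlations of 0.809 over RWPE-1 and 0.799 over BPH-1 libraries, whereas DUSP1 with SPRED2 had 0.397 and -0.558.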

How the data were processed

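RNA was sequenced from 24 libraries of BPH-1 and RWPE-1 cells, grouped by their labels. The authors deposited 4 tables of expected counts per gene, estimated by RSEM in the TOIL pipeline, with cutadapt, FastQC, STAR and hg38 named in the submitters' processing notes. The annotation is not given in the sources used here. The tables hold 60448 gene rows each, whereas the study analysed coding genes after ComBat-seq. Here expected counts were rounded and limited to 19242 protein-coding rows of GENCODE version 29. Library sizes were scaled by TMM and genes filtered by filterByExpr. edgeR 4.0.16 (quasi-likelihood test, Benjamini-Hochberg over all genes tested) was fitted to the compared groups in R 4.3.3, without the 3 low-depth libraries. Two-sided tests were used throughout. Results were recomputed with each library left out, without the count filter, over all gene rows, with low-depth libraries kept in, with RLE size factors, with DESeq2 1.42.0, with a term for the RWPE-1 table, in 1 table only, and with ComBat-seq in sva 3.50.0 and a replicate block. Scripts were tested on simulated data. CPM use protein-coding counts, and log2 CPM a prior count of 2. Intervals and limits for single libraries cover counting error only.

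Of the genes named, all 10 feedback genes are given in every comparison, and of each related list at most the 3 with the largest change among those called, plus genes set beside a member. The members, lists and tests were chosen with earlier results of these data known, so the lists give counts and medians with no test of their own. The transgene is not reported here.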

Additional observations from a re-analysis of the deposited data

Results flagged for a closer look

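Among 30 sets of values (10 genes in the groups of 4, 6 and 7 libraries), 7 had a highest or lowest library further from the others than Dixon's 95% limit, which chance passes in about 1 of 20 sets. In the 6 BPH-1 metastasis-derived libraries, low-depth ones included, the library titled THYMUS R075 stood apart for DUSP1 (475 CPM), DUSP4 (242 CPM), DUSP6 (1274 CPM) and SPRY2 (111 CPM), and R072 for SPRY1 (14.2 CPM). The level of SPRY1 in the 3 low-depth libraries of that group is 0 counts. In the 7 RWPE-1 metastasis-derived lines, Bone4 stood apart with a DUSP6 level of 249.8 CPM and a SPRED2 level of 93.0 CPM.

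The interaction term of edgeR for the metastasis-derived effect (RWPE-1 minus BPH-1) was called for DUSP1, at -1.98 on the log2 scale (adjusted p = 0.0379), and for SPRY1, at 1.54 (adjusted p = 0.0368). Each was called in 7 of the 17 fits that left out 1 library. In BPH-1 stage and table cannot be told apart, so a difference between tables would enter this term too.

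The 3 low-depth libraries were left out of the comparisons except where kept in as another setting, and 7 of their values lay above the highest BPH-1 vector library by their whole 95% Poisson interval. These were DUSP1 at 185 CPM in R071, 196 CPM in R074 and 144 CPM in BONE R075, SPRY2 at 30.1 CPM in R071, SPRY4 at 75.5 CPM in R074, and SPRED2 at 133 CPM in R071 and 179.9 CPM in BONE R075. RN7SL1 took 93.3 to 97.5% of the counts in these libraries, and its part in these levels was not tested.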

How the results depend on the processing

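Of 385 values of single genes under other settings, 358 kept their direction and their side of the threshold, or moved by less than the spread, and 14 changed sign. Of 930 values with 1 library left out, 846 did so and 34 changed sign. In BPH-1 with C-Raf against vector, all 10 genes kept their calls in every setting and with each library left out. The titles of these libraries carry numbers 1 to 3 in both groups, but deviations of same-numbered libraries did not go together (correlations of 0.0232, -0.116 and -0.0552). Those of differently numbered libraries ran from -0.0841 to 0.125. No pairing by number was seen, though such a check with 3 libraries per group cannot exclude it. With a replicate block, 10 of the 10 genes and 7688 genes in all were called, against 7919 without it.

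With the low-depth libraries kept in, 2105 genes were called between BPH-1 stages, 4187 in the cell line interaction and 37 in the average C-Raf effect, with 0 of the 10 genes in the last. In that setting SPRED1 (-0.10) and SPRED2 (1.15) changed sign between BPH-1 stages, SPRED2 in the interaction (-1.10) and SPRED2 in the average metastasis effect (0.48). DESeq2 called 176 genes between RWPE-1 stages, 456 in the average C-Raf effect (4 of the 10 genes) and 952 in the average metastasis effect (1 of the 10), where edgeR called 13, 124 and 386. All gene rows gave 20 and 1781 genes for the first and last of these. ComBat-seq followed by DESeq2 called 2 of the 10 genes for C-Raf and 1 for metastasis, with DUSP6 at 0.19 and SPRY2 at -0.15 in the latter. Only the RWPE-1 table with 3 parental libraries gave 2 genes, with SPRY4 at -0.0084, and a term for the table put SPRY1 at -0.0069. RLE size factors left 1 of the 10 genes in the interaction, and the same-table RWPE-1 vector comparison 0 of the 10 and 574 genes in all, against 968. Signs near 0 flipped under DESeq2 and RLE for DUSP5 between cell lines (-0.0027 in both) and, in the average metastasis effect, for DUSP6 (0.010 in both) and DUSP7 (0.0028 in both). The causes of these differences were not tested.

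With 1 library left out, 0 to 4 of the 10 genes and 1960 to 8325 genes in all were called between BPH-1 stages, 4 to 40 genes between RWPE-1 stages, 0 to 5 of the 10 in the interaction, 1 to 4 of the 10 and 38 to 288 genes for the average C-Raf effect, and 98 to 489 genes for the average metastasis effect. Ranges that crossed 0 were, between BPH-1 stages, -1.30 to 0.25 for DUSP6 and -0.49 to 1.99 for SPRY2. Between RWPE-1 stages they were -0.013 to 0.30 for SPRY1 and -0.033 to 0.085 for SPRED2. In the interaction they were -0.95 to 0.21 for DUSP5, -0.094 to 1.49 for DUSP6, -2.14 to 0.38 for SPRY2, -0.64 to 0.019 for SPRY4 and -0.43 to 0.10 for SPRED1. Between the parental cells of both lines the range was -0.039 to 0.068 for DUSP5. In the average metastasis effect the ranges were -0.38 to 0.12 for DUSP6, -0.18 to 0.060 for DUSP7 and -0.34 to 0.55 for SPRY2. The depth of the 21 libraries in the tests does not limit the members, whereas in the low-depth libraries a count of 0 allows up to 27.0 CPM by the limit of 3 counts.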
